A study of Homo sapiens with 6 samples.

Results

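The E2F and DP genes examined here as a family are 10 transcription factor genes: E2F1 to E2F8, TFDP1 and TFDP2. They were taken by gene name from the 20030 entries of a count table of KGN cells, a line from a human ovarian granulosa cell tumour, and all 10 passed the filter on low counts that left 12508 entries for testing. Of these 10 genes, E2F1, E2F2, E2F7, E2F8 and TFDP1 rose with siRNA against SNHG5, E2F3, E2F4, E2F5 and E2F6 fell, and TFDP2 did not pass the test. The rise of E2F7 was the least secure, as its values below show. E2F1 stood 1.74-fold higher and E2F5 1.95-fold lower.

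The study compared 3 libraries of KGN cells given a negative control siRNA, labelled wild type, with 3 libraries of KGN cells given siRNA directed at SNHG5, a long noncoding RNA that hosts snoRNAs, labelled knockdown. RNA was collected 48 h after transfection, and the series title places SNHG5 in PCOS, with miR-92a-3p acting on CDKN1C. All 6 libraries came from the same tumour line, the labels give neither the siRNA sequences nor their number, and nothing says that the replicates were separate cultures, so each p measures the spread between these samples, which may be technical. The level of SNHG5 was not analysed here, and the knockdown was therefore not checked on its transcript.

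E2F factors bind a short GC-rich element in the promoters of genes needed for DNA synthesis. E2F1 to E2F6 do so as heterodimers with a DP protein, while E2F7 and E2F8 carry a duplicated DNA-binding domain and need no DP partner. In resting cells E2F4 and E2F5, held by the pocket proteins p107 and p130, keep these promoters silent; when cyclin-dependent kinases phosphorylate RB and its relatives, E2F1, E2F2 and E2F3 are freed to activate them. E2F6 represses without pocket proteins, through a Polycomb complex, and E2F7 and E2F8 close the wave late in S phase. In the growing follicle, granulosa cells divide under gonadotropins and growth factors, and exit from the cycle accompanies luteinisation.

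Total counts ran from 18232634 to 22088913 per library. CPM here are counts scaled to library size by TMM. Log2 CPM of pairs of libraries within groups differed by a root mean square of 0.216 to 0.231 among the controls; SNHG5 siRNA replicate 2 differed from replicates 1 and 3 of its group by 0.257 and 0.258, and these from each other by 0.218, so values without it are given where they matter. Of 16 granulosa markers 10 averaged at least 1 CPM, among them FOXL2 (26.9 CPM), AMH (12.8 CPM) and FST (565 CPM), while INHA (0.292 CPM), CYP19A1 (0.297 CPM) and AMHR2 (0.0255 CPM) were low beside a detection floor of 3 counts (0.136 to 0.165 CPM). The granulosa list summed to 4360 to 4429 CPM with control siRNA and 2939 to 3246 CPM with SNHG5 siRNA, mostly KRT18. Of 10 blood and endothelial markers 3 averaged at least 1 CPM, CD68 (24.1 CPM), PTPRC (2.13 CPM) and VWF (1.66 CPM). Another 4, CD3E, CDH5 and HBB among them, had no count in any library. That list summed to 24.0 to 28.5 CPM in control and 29.1 to 31.4 CPM in SNHG5 siRNA libraries, mostly CD68. Of 9 theca and stroma markers 4 averaged at least 1 CPM, COL1A1 (5050 CPM), COL3A1 (299 CPM), PDGFRA (28.5 CPM) and ACTA2 (26.0 CPM). CYP17A1, LHCGR, INSL3 and LUM had no count. The theca and stroma list summed to 5864 to 6223 and 4558 to 4850 CPM, mostly COL1A1. The surface epithelium list, 5 of 7 at 1 CPM or more, summed to 99.1 to 105 and 86.1 to 93.2 CPM. The part of these shifts in the results was not tested.

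Across all tested genes 40.2% passed edgeR's quasi-likelihood test at an adjusted p under 0.05, 20.3% higher and 19.9% lower with SNHG5 siRNA. Of the 10 E2F and DP genes 9 passed, 5 higher and 4 lower. In 8 of the 10 genes no CPM of a group lay within the range of the other, against 49.8% of all tested genes. The median absolute log2 fold change was 0.38 in the family and 0.17 over all tested genes. Among the genes that passed, 50.5% were higher; with upper quartile scaling it was 39.9%, and the family then had 4 higher and 4 lower. As the plot of CPM by library shows, changes in opposite directions stood side by side within the family, so its median of 0.12 describes none of its members.

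**Figure D1:**
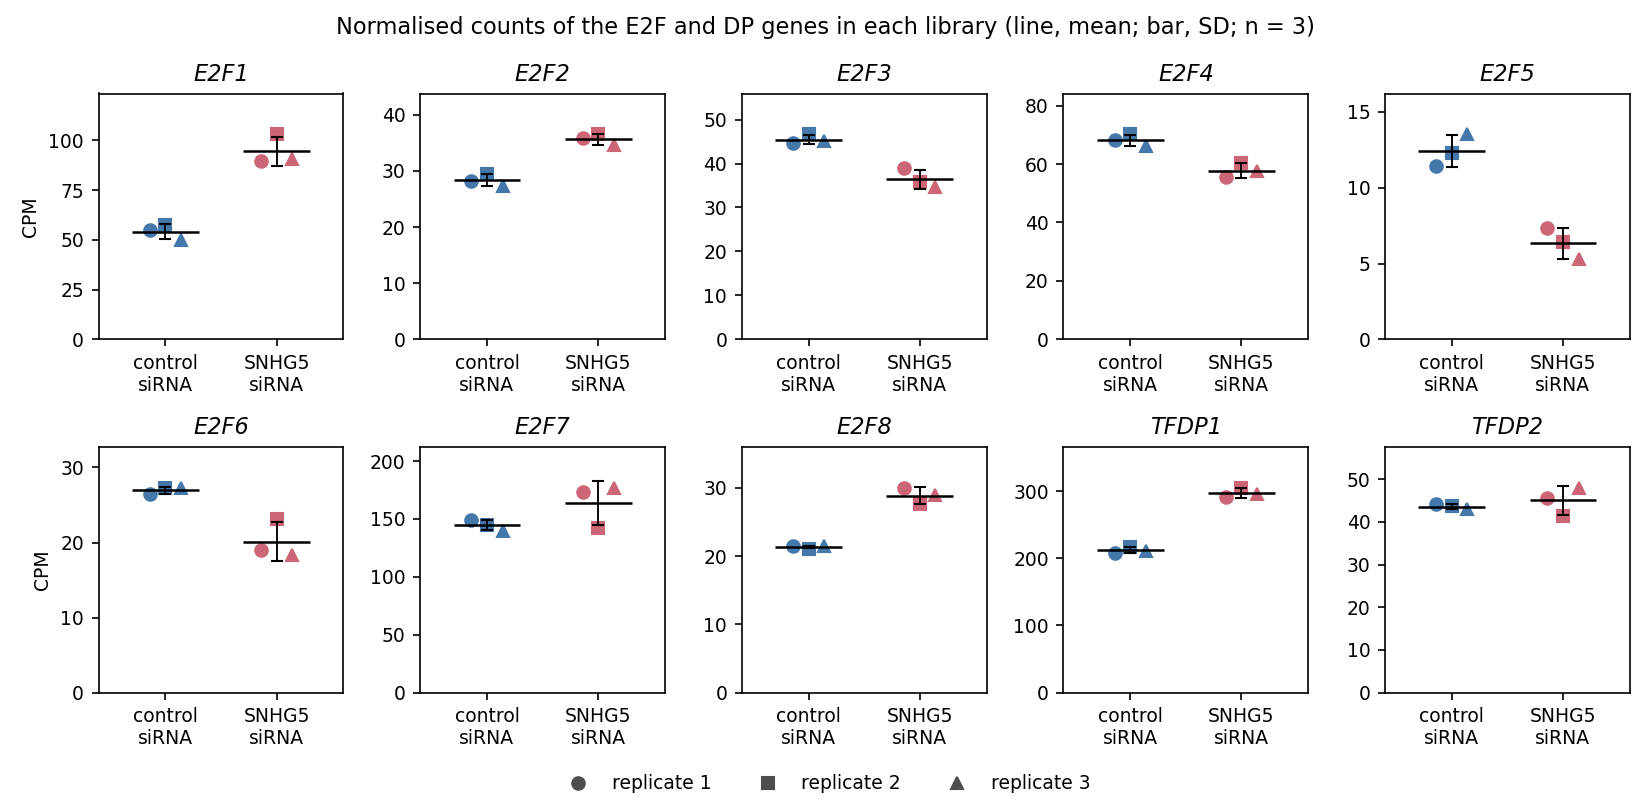
CPM of each E2F and DP gene (vertical axes from 0) in the 3 control siRNA and 3 SNHG5 siRNA libraries, with a marker shape for each replicate, a line at the mean and a bar of 1 SD. E2F1, E2F2, E2F8 and TFDP1 lie higher and E2F3, E2F4, E2F5 and E2F6 lower in all 3 SNHG5 siRNA libraries, while E2F7 and TFDP2 overlap.

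E2F1, E2F2 and E2F3 are the activators, which the retinoblastoma protein binds and inhibits. E2F1 (chromosome 20, 33675683 to 33686404, minus strand, GRCh38) had 55.1, 57.5 and 50.1 CPM in control siRNA replicates 1, 2 and 3, and 89.7, 103 and 90.7 CPM in SNHG5 siRNA replicates 1, 2 and 3. Every SNHG5 siRNA library lay far above every control, and replicate 2 was the highest. The means were 54.2 ± 3.74 and 94.5 ± 7.47 CPM (SD, n = 3), a log2 fold change of 0.80 ± 0.07 (SE; 95% interval 0.66 to 0.94; edgeR adjusted p = 2.76e-08). Without SNHG5 siRNA replicate 2 it was 0.73. Only 3.90% of tested genes had a larger absolute log2 fold change.

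E2F2 (chromosome 1, 23506430 to 23531220, minus strand) moved the same way by less. It had 28.3, 29.4 and 27.3 CPM in the controls and 35.8, 36.5 and 34.6 CPM in the SNHG5 siRNA libraries. The ranges were narrow and apart, and the log2 fold change was 0.33 ± 0.07 (SE; edgeR adjusted p = 9.21e-04).

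E2F3 (chromosome 6, 20401906 to 20493715, plus strand), the activator most often needed for S phase entry in cultured fibroblasts, went the other way. Its CPM were 44.6, 46.6 and 45.1 in the controls and 38.9, 35.7 and 34.6 in the SNHG5 siRNA libraries. All 3 SNHG5 siRNA libraries were below the lowest control, with a log2 fold change of -0.32 ± 0.07 (SE; 95% interval -0.46 to -0.18; edgeR adjusted p = 7.12e-04). The intervals of E2F1 and E2F2 lay above 0 and that of E2F3 below it.

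The promoters of these activators are themselves E2F-bound in the textbook account, so their proximal sequences are shown with the E2F words in capitals. The words searched, on both strands, were TTTCCCGC, TTTCCCGG, TTTCGCGC, TTTCGCGG, TTTGCCGC, TTTGCCGG, TTTGGCGC and TTTGGCGG, from 250 bases before to 50 after each RefSeq start. The 4 pieces below (RefSeq, GRCh38.p14) hold E2F1 at chr20:33686386-33686465 (minus strand), E2F2 at chr1:23531234-23531313 (minus strand) and E2F3 at chr6:20401799-20401878 (plus strand, its upstream start), each the stretch just before the start, and TFDP1 at chr13:113584597-113584676 (plus strand), further upstream. A word in reverse complement, as in E2F3 and TFDP1, lies on the opposite strand.
E2F1: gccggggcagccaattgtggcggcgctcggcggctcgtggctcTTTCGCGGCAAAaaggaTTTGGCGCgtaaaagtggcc
E2F2: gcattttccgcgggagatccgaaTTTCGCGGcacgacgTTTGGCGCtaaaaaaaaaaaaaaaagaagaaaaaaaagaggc
E2F3: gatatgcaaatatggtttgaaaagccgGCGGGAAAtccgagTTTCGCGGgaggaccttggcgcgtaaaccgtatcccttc
TFDP1: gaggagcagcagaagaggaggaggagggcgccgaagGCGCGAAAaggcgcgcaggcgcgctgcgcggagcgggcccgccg

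E2F1 and E2F2 both carried TTTCGCGG followed downstream by TTTGGCGC. In E2F1 these began at -37 and -20, counted from the start, with TTTGCCGC on the opposite strand at -33, overlapping TTTCGCGG. In E2F2 they began at -57 and -42. The RefSeq start of E2F1, base 33686385, lies inside the GENCODE gene bounds given above, which reach 33686404. The upstream E2F3 start carried TTTCCCGC on the opposite strand at -53 and TTTCGCGG on its own at -39. At least 1 word was found in 6.19% of 35116 RefSeq promoters of this length, and at least 2 in 0.379%. Those promoters include genes not tested here, and the words were more frequent among tested genes. Of tested genes with a RefSeq promoter, 8692 had no word, 1246 at least 1 and 86 at least 2, by the promoter with most words. So E2F1 and E2F2, which rose, and E2F3, which fell, shared the arrangement of closely spaced words just before the start. Promoters of 8 of the 10 genes were searched. Those of E2F5 and E2F8 were not. E2F6 had TTTCCCGG at -183 and -78, TFDP1 had TTTCGCGC on the opposite strand at -120, and TFDP2 had TTTGGCGG on the opposite strand, 18 bases after its upstream start. None of the 8 words lay in the windows of E2F4, E2F7, the downstream start of E2F3 or the other TFDP2 starts. The map of word positions shows them. A match is a description of letters, and no binding was measured.

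**Figure D2:**
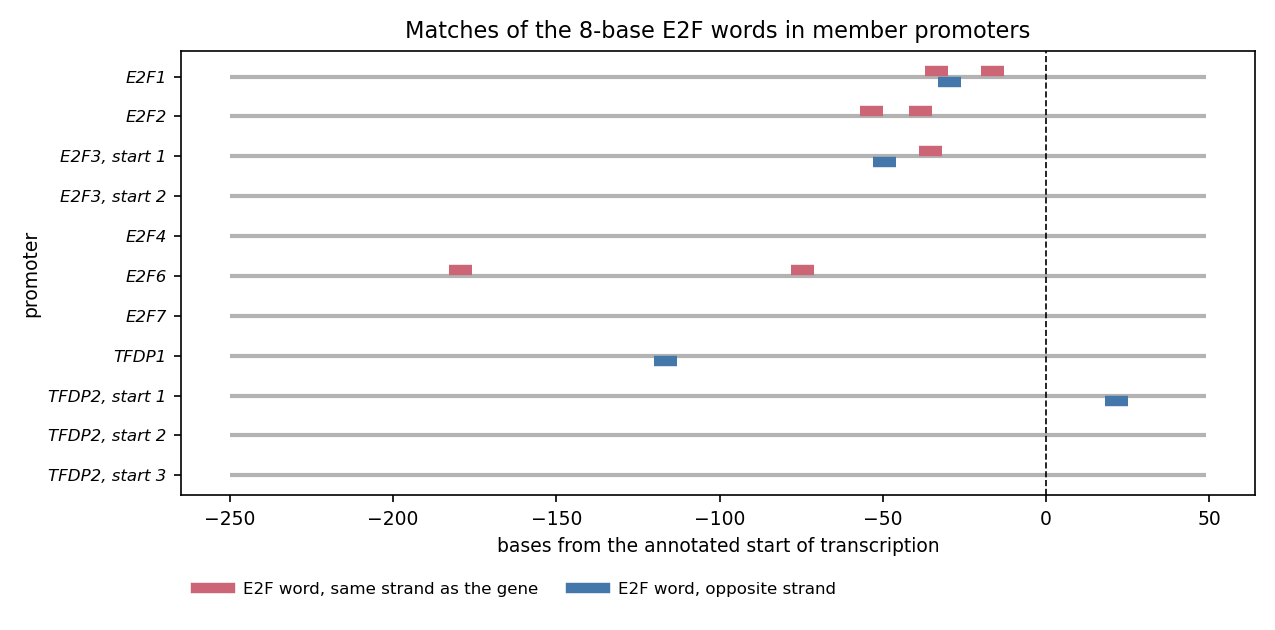
Positions of the 8-base E2F words relative to the annotated start (0, dashed) in the 11 promoters of 8 family members, with words on the strand of the gene above the line and words on the opposite strand below it. The words of E2F1, E2F2 and the upstream start of E2F3 begin between -57 and -20.

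E2F4 and E2F5 are the repressors that work with p107 and p130. E2F4 (chromosome 16, 67192169 to 67198918, plus strand) had 68.1, 70.1 and 66.3 CPM in the controls and 55.4, 60.3 and 57.6 CPM in the SNHG5 siRNA libraries. The groups did not overlap, although the gap was small, and the log2 fold change was -0.24 ± 0.06 (SE; edgeR adjusted p = 0.00294). On the FPKM deposited by the authors the call ended, at -0.15 with 1 added (limma adjusted p = 0.0716).

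E2F5, the less abundant of the pair, had the largest change of the family. It had 11.4, 12.3 and 13.5 CPM in the controls and 7.31, 6.39 and 5.30 CPM in the SNHG5 siRNA libraries. The lowest control was well above the highest SNHG5 siRNA library, and the log2 fold change was -0.96 ± 0.12 (SE; 95% interval -1.21 to -0.71; edgeR adjusted p = 3.55e-06). A larger absolute log2 fold change was seen in 2.33% of tested genes. Its exons overlap those of C8orf59 on the opposite strand by 969 bases and those of an antisense RNA by 133, and the strand setting of the counting is not given in the sources used here. C8orf59 averaged 26.4 ± 1.97 CPM in the controls and 26.9 ± 1.84 CPM in the other group, with a log2 fold change of 0.03 (edgeR adjusted p = 0.810).

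E2F6 lacks the transactivation and pocket-binding domains and joins the Polycomb complex PRC1.6. E2F6 (chromosome 2, 11444375 to 11466177, minus strand) had 26.4, 27.3 and 27.2 CPM in the controls and 19.0, 23.1 and 18.3 CPM in the SNHG5 siRNA libraries. All SNHG5 siRNA libraries were below the controls, with replicate 2 nearest to them. The log2 fold change was -0.42 ± 0.09 (SE; edgeR adjusted p = 9.22e-04), and -0.53 without that replicate. E2F3, E2F4 and E2F6 have 2, 1 and 4 annotated processed pseudogenes, and how reads shared with these were counted is not given in the sources used here, so their levels are uncertain to that extent.

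E2F7 and E2F8, the atypical repressors, both had log2 fold changes above 0, with unequal support. E2F8 (chromosome 11, 19224063 to 19241620, minus strand) had 21.49, 21.12 and 21.38 CPM in the controls and 29.96, 27.56 and 28.88 CPM in the SNHG5 siRNA libraries. The controls lay within a fraction of a CPM of each other and all SNHG5 siRNA libraries were above them, with a log2 fold change of 0.43 ± 0.08 (SE; edgeR adjusted p = 1.59e-04). An antisense RNA overlaps its exons by 7 bases.

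E2F7 (chromosome 12, 77021247 to 77065580, minus strand), also known as a direct p53 target, had 149, 145 and 140 CPM in the controls and 173, 142 and 177 CPM in the SNHG5 siRNA libraries. Replicate 2 of the SNHG5 siRNA group fell inside the control range while the other replicates lay above it. The log2 fold change was 0.18 ± 0.07 (SE; 95% interval 0.04 to 0.33; edgeR adjusted p = 0.0378). Without SNHG5 siRNA replicate 2 it was 0.28 (edgeR adjusted p = 1.67e-06). Leaving out a control library ended its call: it was 0.21 (edgeR adjusted p = 0.0536) without replicate 1, 0.19 (0.0846) without replicate 2 and 0.16 (0.154) without replicate 3. The call also ended at 0.15 (0.153) without replicate 1 of the SNHG5 siRNA group and at 0.13 (0.186) without its replicate 3. The same held with upper quartile scaling, with the trend on GC content removed and on FPKM.

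TFDP1 and TFDP2 encode DP1 and DP2, the dimer partners. TFDP1 (chromosome 13, 113584721 to 113641470, plus strand) had 208, 217 and 211 CPM in the controls and 291, 305 and 295 CPM in the SNHG5 siRNA libraries. The libraries within each group were close and the groups wide apart, with a log2 fold change of 0.49 ± 0.05 (SE; 95% interval 0.38 to 0.59; edgeR adjusted p = 2.45e-07). TFDP2 (chromosome 3, 141944428 to 142149544, minus strand) had 44.15, 43.72 and 42.99 CPM in the controls and 45.71, 41.44 and 47.98 CPM in the SNHG5 siRNA libraries. The SNHG5 siRNA libraries lay on both sides of the controls. With a log2 fold change of 0.05 TFDP2 did not pass (edgeR adjusted p = 0.609), and had a 95% interval of -0.09 to 0.18, which lies below that of TFDP1. TFDP3, a related gene, was listed at 0 in every library.

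**Figure D3:**
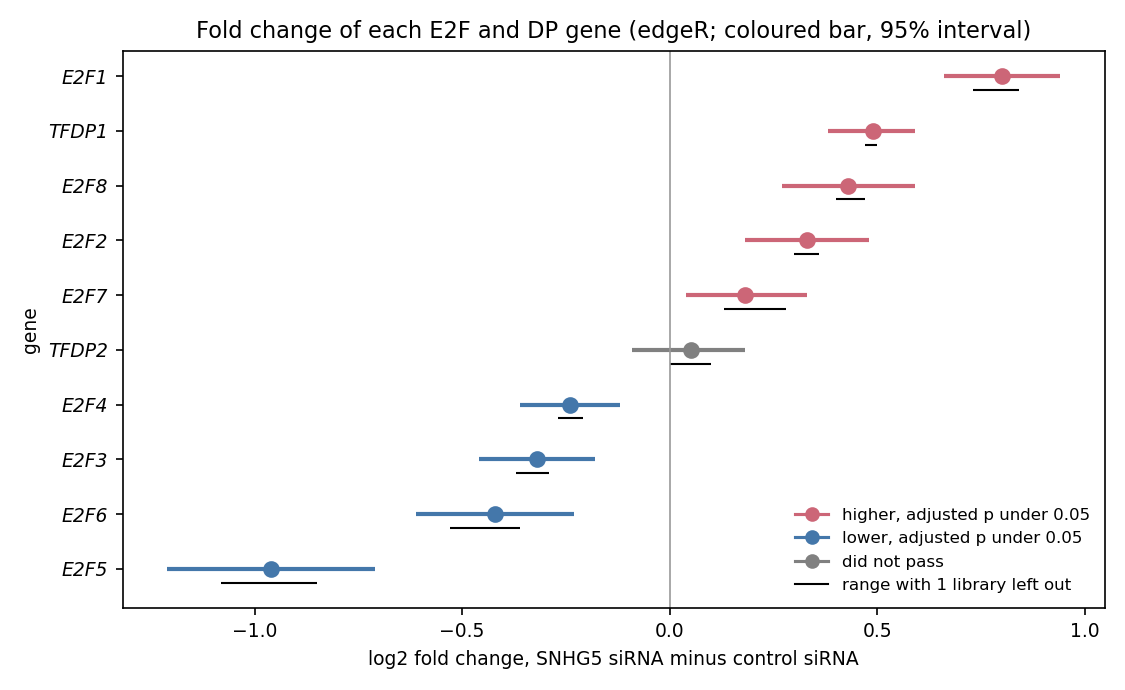
Log2 fold change of each gene (SNHG5 siRNA minus control siRNA, horizontal axis) with its 95% interval from edgeR as a coloured bar and the range of values with 1 library left out as a thin black line. E2F1 at 0.80 and E2F5 at -0.96 lie at the ends, and only TFDP2 has an interval that spans 0.

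With 3 libraries against 3, an exact 2-sided permutation test cannot give a p below 0.1, which the 8 genes without overlap reached; E2F7 gave 0.3 and TFDP2 0.6. Of the 9 genes that passed, 7 (E2F1, E2F2, E2F3, E2F5, E2F6, E2F8 and TFDP1) kept their call and direction in each of 16 alternative analyses. In the plot of fold changes, the ranges with 1 library left out stayed on 1 side of 0 for each of the 9. These are bulk libraries, in which a changed share of cells in a phase of the cycle and a changed amount of RNA per cell cannot be told apart.

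Levels were compared between genes on the deposited FPKM, which are per length. How the authors set the lengths and counted reads for FPKM is not given in the sources used here. With control siRNA E2F5 averaged 12.4 CPM and 4.82 FPKM, and E2F3 45.4 CPM and 4.46 FPKM. Their longest annotated transcripts are 5042 and 4749 bases, so the FPKM do not follow from these counts and lengths. E2F4 had 26.8 FPKM both at 68.1 CPM (control siRNA replicate 1) and at 60.3 CPM (SNHG5 siRNA replicate 2). The part of other lengths and of other read counting was not tested. The order of genes is uncertain to that extent. With control siRNA the order was TFDP1 (53.0 ± 1.30 FPKM; SD, n = 3), E2F4 (27.4 ± 0.691), E2F7 (19.3 ± 0.863), E2F1 (18.4 ± 0.958), E2F5 (4.82 ± 0.311), E2F3 (4.46 ± 0.142), E2F2 (4.04 ± 0.251), E2F6 (3.51 ± 0.184), E2F8 (3.36 ± 0.0524) and TFDP2 (2.82 ± 0.0962). The ranges of the libraries overlapped for the neighbours E2F7 and E2F1, E2F5 and E2F3, E2F3 and E2F2, and E2F6 and E2F8. The order therefore ran from TFDP1 and E2F4 at the top, through E2F7 and E2F1, to a group of 6 genes under 6 FPKM.

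With SNHG5 siRNA E2F1 (34.5 ± 3.67 FPKM) stood above E2F4 (24.6 ± 1.93 FPKM), with no overlap of their ranges. The other levels were 76.2 ± 2.50 FPKM for TFDP1, 21.5 ± 2.58 for E2F7, 5.33 ± 0.245 for E2F2, 4.51 ± 0.101 for E2F8 and 3.42 ± 0.186 for E2F3. E2F5, above E2F3 with control siRNA, came last at 2.43 ± 0.456 FPKM, although its range overlapped that of E2F6 (2.48 ± 0.254), which in turn overlapped that of TFDP2 (2.81 ± 0.242). The ranges of E2F4 and E2F7 also overlapped.

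The ratio of E2F1 to E2F4 in FPKM was 0.674, 0.692 and 0.646 in the controls and 1.41, 1.44 and 1.34 in the SNHG5 siRNA libraries. The order of the activator and the repressor was thus opposite in every library of the groups. E2F1 to E2F3 together made up 31.5 ± 0.801% of the summed FPKM of E2F1 to E2F8 with control siRNA and 43.7 ± 2.39% with SNHG5 siRNA (SD, n = 3). E2F4 and E2F5 made up 37.8 ± 0.940% and 27.4 ± 0.959%, E2F6 4.11 ± 0.198% and 2.50 ± 0.171%, and E2F7 and E2F8 26.6 ± 1.09% and 26.4 ± 3.50%. Within the activators E2F1 alone had 21.6 ± 0.591% and 34.9 ± 2.51%, E2F2 4.73 ± 0.178% and 5.39 ± 0.116%, and E2F3 5.22 ± 0.0514% and 3.46 ± 0.247%. The summed FPKM of the 8 genes was 85.4 ± 2.07 and 98.8 ± 3.28. The ratio of TFDP1 to TFDP2 was 18.8 ± 0.848 and 27.3 ± 3.30. These sums follow from the changes of the genes above and were not tested. They also rest on the unknown lengths and read counting behind the deposited FPKM.

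**Figure D4:**
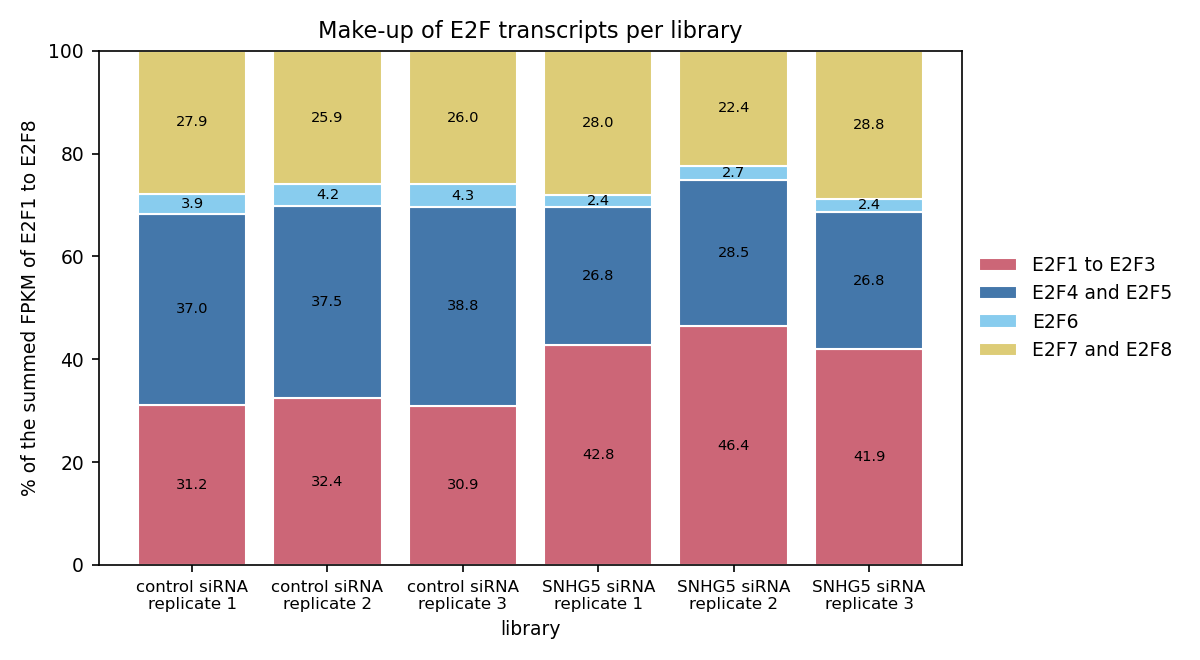
Share of the summed FPKM of E2F1 to E2F8 (vertical axis, %) held by the activators E2F1 to E2F3, the repressors E2F4 and E2F5, E2F6, and the atypical E2F7 and E2F8, in each library. The activators hold 30.9 to 32.4% in the controls and 41.9 to 46.4% with SNHG5 siRNA, and the share of E2F4 and E2F5 is lower in every SNHG5 siRNA library.

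The regulators of E2F were examined as lists of genes, read against 20.3% higher, 19.9% lower and a median of -0.01 over all tested genes. Of the pocket proteins, RBL1 (p107), at 51.3 ± 1.68 and 80.4 ± 4.92 CPM, rose by 0.65 in log2 terms, and RBL2 (p130) by 0.38, from 52.1 ± 0.811 to 67.8 ± 5.27 CPM. RB1, at 152 ± 14.7 and 145 ± 11.4 CPM, did not pass, with -0.06 on the log2 scale (edgeR adjusted p = 0.519). The partners of E2F4 and E2F5 thus rose while E2F4 and E2F5 themselves fell.

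Of 5 tested CDK inhibitors, which keep RB active, 0 rose, 3 fell and 2 did not pass, with a median of -0.83. CDKN1A (p21) fell from 515 ± 16.2 to 145 ± 1.96 CPM and CDKN1B (p27) from 102 ± 2.28 to 57.4 ± 0.353 CPM. CDKN1C (p57), the gene of the series title, fell from 0.857 ± 0.216 to 0.252 ± 0.180 CPM, on 14 to 20 and 1 to 7 counts per library, and did not pass when control siRNA replicate 3 was left out (-1.56, edgeR adjusted p = 0.0516) or on unfiltered FPKM (-0.30, limma adjusted p = 0.144). With the GC trend removed, or on FPKM, 1 inhibitor rose.

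Of 9 tested G1 cyclins, CDKs and their phosphatase, 4 rose, 1 fell and 4 did not pass, with a median of 0.07; 2 or 3 fell in 7 of the 16 alternative analyses, among them 2 without SNHG5 siRNA replicate 2. CDC25A, the phosphatase that activates CDK2 and is itself an E2F target, rose by 0.61 and CCNE2, a cyclin of CDK2, by 0.39. CCND1, cyclin D1, fell from 1022 ± 18.9 to 625 ± 10.5 CPM. CCNE1, the other cyclin E gene and a classical E2F1 target, averaged 15.9 CPM in both groups (edgeR adjusted p = 0.999), and was chosen for mention after its value was seen.

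The MuvB core joins E2F4 and p130 in the DREAM repressor of resting cells, and B-MYB and FOXM1 in dividing cells. The list of this core with MYBL1, MYBL2 and FOXM1 had 8 genes, of which 6 were higher, 1 lower and 1 not called, with a median of 0.29. Of the core genes LIN9, LIN54 and RBBP4 rose, LIN52 fell and LIN37 did not pass, and the other rises were MYBL1, MYBL2 and FOXM1. LIN9 rose by 0.50, from 17.5 ± 0.332 to 24.8 ± 1.66 CPM, and MYBL2, encoding B-MYB, by 0.41, while LIN52, the subunit whose phosphorylation switches MuvB to DREAM, fell by 0.51, from 17.1 ± 1.10 to 12.0 ± 0.598 CPM. The counts of this list were the same in each of the 16 alternative analyses.

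Genes known as E2F targets for the G1/S transition and replication moved nearly as a block: 42 of 43 were higher, 0 were lower and 1 did not pass, with a median of 0.38. POLE2, a subunit of DNA polymerase epsilon, rose by 0.71 (18.7 ± 1.39 to 30.7 ± 1.78 CPM), TIPIN, a fork protection factor, by 0.67 (18.5 ± 1.86 to 29.4 ± 3.37 CPM) and PRIM1, the primase, by 0.66 (23.3 ± 0.927 to 36.8 ± 2.17 CPM). The member that did not pass was POLA2, at 0.15 (edgeR adjusted p = 0.0571). With 1 library left out, 39 to 41 rose. Many of these genes belong to a group whose rise in these samples was known when the list was made. The count is therefore a description, and it depends on how the lists were cut. In the cyclin and ubiquitin ligase lists, the E2F target CDC25A rose by 0.61, while CCNE1 and SKP2 did not pass. CCNE1 and SKP2 were named after their values were seen. These few genes do not stand for E2F targets outside the replication list, whose other lists follow.

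Targets of repair and chromatin numbered 22, of which 18 were higher, 0 lower and 4 not called, also with a median of 0.38. XRCC2, of homologous recombination, rose by 0.67, BRCA1 by 0.62 (73.3 ± 2.76 to 113 ± 9.28 CPM) and BLM, the helicase of Bloom syndrome, by 0.58. The 4 that did not pass were DNMT1 and the Polycomb genes EZH2, SUZ12 and EED, at 0.04 to 0.12. Targets of nucleotide supply numbered 11, of which 7 were higher, 0 lower and 4 not called, with a median of 0.27. The ribonucleotide reductase genes RRM1 and RRM2 rose by 0.45 and 0.36. Those that did not pass were CTPS1, GMPS, ATIC and PAICS, of de novo nucleotide synthesis.

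The later programme of G2/M genes, driven by MuvB with B-MYB and FOXM1, held 30 tested genes, of which 11 were higher, 7 lower and 12 not called, with a median of 0.00. BIRC5, survivin, rose by 0.87 (107 ± 2.75 to 195 ± 16.6 CPM) and the spindle gene HMMR by 0.35. CDC20, which switches on the ubiquitin ligase of anaphase, fell by 0.40 (280 ± 13.9 to 212 ± 14.5 CPM). Leaving out control replicate 2, or replicate 3 of the SNHG5 siRNA group, left 4 genes that fell. The balance turned with upper quartile scaling, at 8 higher and 10 lower, and on FPKM 7 rose after the filter and 9 without it. The plot of gene lists sets the replication and repair targets, nearly all to the right of 0, beside the G2/M genes on both sides of it.

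**Figure D5:**
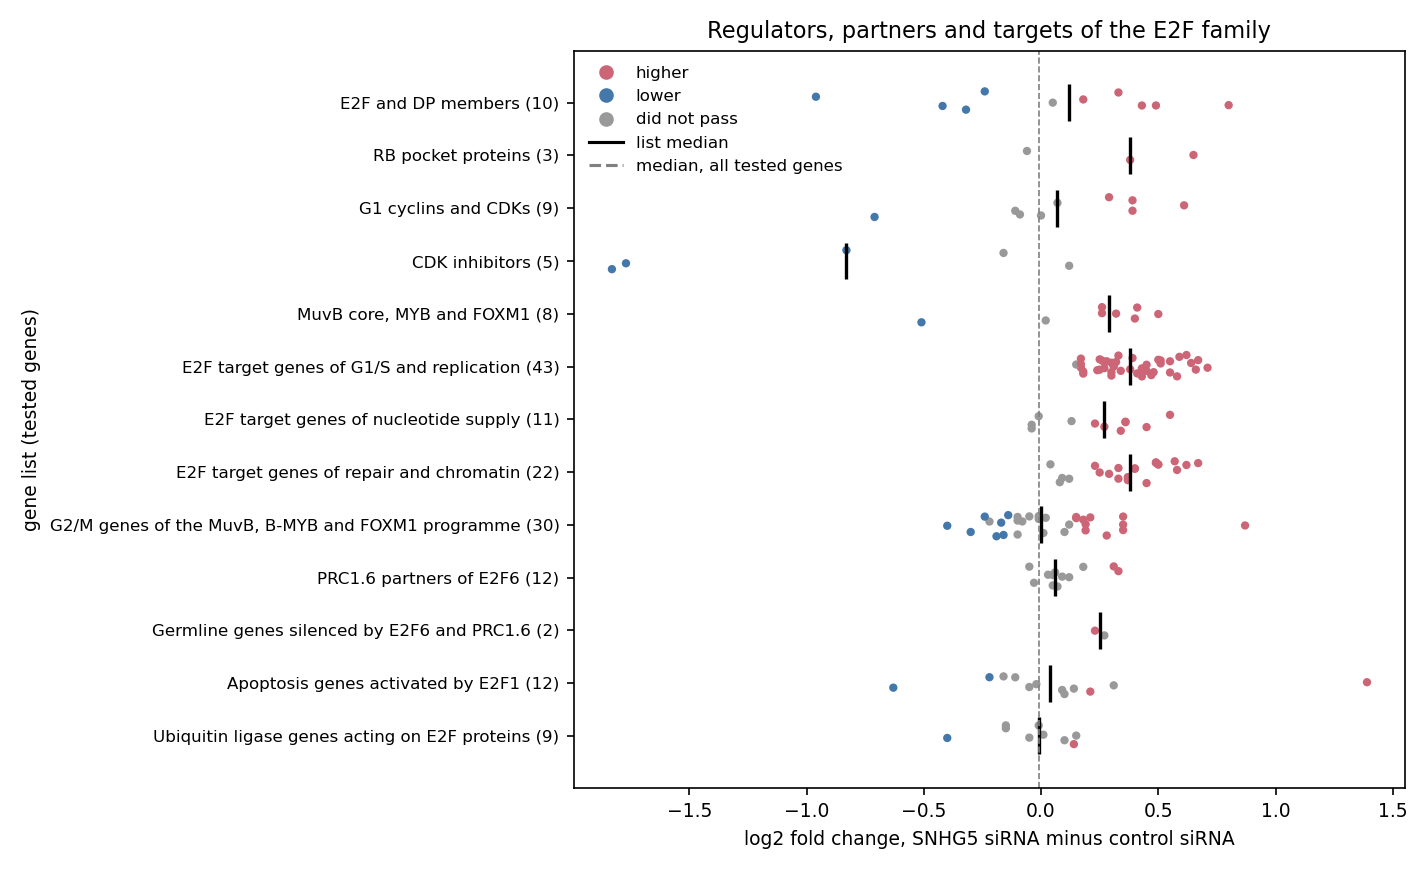
Log2 fold change (horizontal axis) of every tested gene in the family and in 12 lists of its regulators, partners and targets, coloured by call, with each list's median as a black line and that of all tested genes as a dashed line. The replication targets have 42 of 43 genes higher, and the G2/M list has 11 higher and 7 lower of 30.

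E2F6 acts with the PRC1.6 subunits, and of 12 tested 2 rose and 10 did not pass, with a median of 0.06; on FPKM 4 rose after the filter and 3 without it. HDAC1 rose by 0.33 and PCGF6, the subunit that defines the complex, by 0.31, from 15.1 to 18.8 CPM on average. Of 12 germline genes that E2F6 and PRC1.6 silence in somatic cells, 10 were too low to be tested. MAEL had 0.528 ± 0.117 and 0.637 ± 0.236 CPM and did not pass, and TDRKH rose from 12.9 ± 0.527 to 15.0 ± 0.756 CPM, by 0.23 (edgeR adjusted p = 0.0418). That call ended on leaving out replicate 1 (0.20), 2 (0.23) or 3 (0.25) of the controls, or replicate 1 (0.19) or 3 (0.23) of the SNHG5 siRNA group. It also ended with DESeq2 (adjusted p = 0.133), upper quartile scaling (0.0910), no filter (0.0511) and unfiltered FPKM (0.0636).

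Apoptosis genes known as E2F1 targets numbered 12, of which 2 were higher, 2 lower and 8 not called, with a median of 0.04. PMAIP1 (NOXA), at 56.6 ± 2.52 and 65.6 ± 1.36 CPM, rose by 0.21 in log2 terms, a call that ended on FPKM (0.10 in each of 3 fits, limma adjusted p = 0.0839 to 0.117). BBC3 (PUMA), also a p53 target, fell by 0.63, from 12.6 ± 1.16 to 8.12 ± 0.322 CPM. Leaving out control replicate 3 or SNHG5 siRNA replicate 1 gave 1 lower, and leaving out SNHG5 siRNA replicate 2 gave 4 higher and 3 lower. APAF1, a classical E2F1 target, had 0.10 and did not pass (edgeR adjusted p = 0.211); it was named after its value was seen.

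The genes whose pattern over the 6 libraries was most like that of a family member were found by the root mean square difference of centred log2 CPM among 12498 genes. Nearest to E2F1 were BCL7B, a subunit of SWI/SNF complexes (0.0292 log2 units; 33.1 and 58.2 CPM in the groups), PPP1R14B, an inhibitor of protein phosphatase 1 (0.0385), FAM32A (0.0459) and IGFBP5, an IGF-binding protein (0.0473). Nearest to E2F5 were MFSD2A, a lipid transporter (0.0556; 9.43 and 4.95 CPM), MAF, a transcription factor (0.0880), MYO1D, an unconventional myosin (0.0956), and ARHGAP25 (0.10). None of these 8 was in the lists of E2F regulators and targets. Those lists held only 165 tested genes, so this absence says little. The log2 fold changes were 0.73 to 0.81 for the neighbours of E2F1 and -1.08 to -0.92 for those of E2F5, close to the members' own. MAF (1.87 CPM with control siRNA and 0.948 with SNHG5 siRNA) and MYO1D (0.814 and 0.404) were low. MYO1D passed (edgeR adjusted p = 0.0367), a call that ended whichever library was left out.

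The study's microRNA, miR-92a-3p, comes from the miR-17-92 cluster, whose transcription E2F factors are known to activate. Its mature sequence (RefSeq) is shown with the seed, bases 2 to 8, in capitals, beside the matching 7-base sites in the longest annotated 3' UTRs (GENCODE v29) of family members, with 30 bases each.
miR-92a-3p: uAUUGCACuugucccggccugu
E2F3: agtgagaaaatGTGCAATcaggtgtctctc
TFDP2: tctcacccagtGTGCAATttgtgaaaatga

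E2F3 held 1 site, at bases 275 to 281 of its 3' UTR of 3288 bases, and TFDP2 held 1, at bases 936 to 942 of 8088. None was found in the longest 3' UTRs of the other 8 genes, which were 598 to 3453 bases. Of 12318 tested genes with an annotated 3' UTR 13.4% held the site. Their median log2 fold change was 0.02, against -0.01 for the rest. E2F3 had -0.32 and TFDP2 0.05, as given above. The level of the microRNA was not analysed here.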

How the data were processed

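RNA of KGN cells was made into libraries with a SMARTER kit for mRNA-seq, per the labels' protocols. Reads were trimmed with Trimmomatic and the build was GRCh38, per the submitters' processing notes; which aligner, counter and annotation were used is not given in the sources used here. Each library has its column; the authors deposited a table of counts (whole numbers, not normalised) and a table of FPKM, scaled by the authors to length and library size; 0 columns belonged to other samples.

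Counts were scaled by TMM (factors 0.998 to 1.003) and genes kept by filterByExpr were fitted in edgeR 4.0.16 (R 4.3.3) with group as the only term, 2-sided, SNHG5 siRNA minus control siRNA, with Benjamini-Hochberg adjustment over all 12508 tested genes and a threshold of 0.05. Counts simulated from edgeR's own model were run through the edgeR fit, with and without a replicate block, and limma with 0.1 added. The other fits were not tested in that way. Alternatives used DESeq2 1.42.0 and limma 3.58.1 on log2(FPKM + 1 or 0.1). The family and the lists were chosen with earlier results of these data known. Named genes were, per list, the 3 called with the largest absolute log2 fold change and at least 1 CPM, those of a direction with 3 or fewer, and every tested gene of a list of up to 3; CDKN1A and CDKN1C always (some genes of this rule are not reported here); and the 4 nearest in pattern to the largest rise and fall. Precision is limited by 3 libraries per group; the detection floor covers counting error only. Promoters come from RefSeq (GRCh38.p14), other annotation from GENCODE v29 (GRCh38). Python 3.11.15 and matplotlib 3.10.9 were used for summaries and plots.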

Additional observations from a re-analysis of the deposited data

How the results depend on the processing

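Over 16 alternatives (other scaling, no filter, DESeq2, a replicate block, GC trend removed, each library left out, and FPKM) the log2 fold change of E2F1 ranged from 0.73 to 0.91, E2F2 from 0.29 to 0.39, E2F3 from -0.37 to -0.29, E2F5 from -1.08 to -0.77, E2F6 from -0.53 to -0.36, E2F8 from 0.34 to 0.47 and TFDP1 from 0.44 to 0.52, each with the same call. TFDP2 passed in none (-0.01 to 0.10, adjusted p from 0.185 to 1.00). E2F4 ranged from -0.28 to -0.15 and lost its call on FPKM (-0.15 with 1 added, also with no filter, and -0.16 with 0.1 added). E2F7 ranged from 0.13 to 0.28 and lost its call in 10, among them upper quartile scaling (0.14), GC trend removed (0.14) and FPKM (0.14 to 0.15). Over all genes 2488 were lower; on FPKM these were 1620 with 1 added, 1609 with 0.1 added and 1564 with 1 added and no filter; the cause was not tested. Nothing in the labels marks the replicate numbers as pairs, so they were not taken as such. Same-numbered libraries of the groups had correlations of deviations of 0.046, 0.130 and 0.026. Differently numbered ones ran from -0.116 to 0.084, and not every library correlated best with its own number. With the replicate block 5714 genes passed in place of 5026, and the family kept 5 higher and 4 lower. Counting the E2F words before the start only left 4 of the 11 family promoters with more than 1 word, as in the whole window, and 5 in place of 6 with at least 1. Among the lists, ubiquitin ligase genes moved between 0 and 2 higher and 1 and 3 lower.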

Other observations

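Genes of ubiquitin ligases that act on E2F proteins numbered 9, of which 1 was higher, 1 lower and 7 not called, with a median log2 fold change of -0.01. CUL1, the SCF scaffold, had 0.14 (136 ± 2.68 and 150 ± 4.09 CPM), a call that ended on leaving out replicate 1 (0.13) or 2 (0.15) of the controls or replicate 1 (0.14) of the SNHG5 siRNA group, with upper quartile scaling (0.10) and with the GC trend removed (0.10). CDC20, which is also a G2/M gene, fell by 0.40. SKP2, the SCF subunit that recognises p27 and is an E2F target, averaged 76.7 ± 3.56 and 85.1 ± 4.51 CPM, with a log2 fold change of 0.15 (edgeR adjusted p = 0.0511), and was named after its value was seen. CCNF, cyclin F, had -0.05 and did not pass.

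Across tested genes with a RefSeq promoter, 8692 had none of the 8 E2F words, and 19.8% of them were higher and 19.3% lower with SNHG5 siRNA. Of 1246 genes with at least 1 word, 26.2% were higher and 18.2% lower. Of 86 genes with at least 2, 38.4% were higher and 17.4% lower, with a median log2 fold change of 0.13. The median GC content of their transcripts was 47.7%, 46.8% and 45.4%, and its part in these shares was not tested. Genes are not independent replicates, and these shares are descriptions.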
